A study of Arabidopsis thaliana with 6 samples.

Results

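The small RNAs described here are the miR171 products with predicted sites in HAIRY MERISTEM genes, the opposite strand miR171b-5p, and the miR394 product with a predicted site in LCR, a gene that acts in meristems. They were chosen by predicted target sites in the deposited target sheet and by name, not by their counts. A miR171 3p product was taken when it had a site with an Expectation score of 3 or below in at least 2 of the 3 SCL/HAM genes AT4G00150, AT2G45160 and AT3G60630. A miR394 product was taken when it had a site with an Expectation of 2 or below in LCR (AT1G27340). The strand opposite the miR171b 3p product, miR171b-5p, was added by name. Expectation is a penalty for imperfect pairing, so that 0 stands for a fully paired site. This gave 4 distinct sequences, carried by 5 entries, of the 142 distinct sequences and 178 entries in the table. They were miR171a-3p, miR171b/c-3p, miR171b-5p and miR394a/b-5p. Among the 23944 pairs of sequence entry and site used here, no other sequence had a site in the 4 genes of the rule, so none of these pairs lay just outside its limits. A further 7 lines of the sheet held no values and were not used here. All 4 sequences passed the filter on low counts.

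The 6 small RNA libraries came from the upper part of Arabidopsis thaliana leaf explants, 3 from the wild type Col-0 and 3 from ein2-1. The ein2-1 mutant has lost EIN2, a membrane protein needed for the response to the hormone ethylene. All seedlings were 14 days old and had been under water for 1 hour, and all explants had then spent 7 days on callus-inducing medium (CIM), so that neither submergence nor CIM was compared. The design text calls the libraries biological replicates, with Col-0 as the control. The table holds no value for EIN2 itself, and the genotype could not be checked in it.

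MicroRNAs of about 21 nucleotides are cut from the stem of a hairpin precursor, and each arm of the stem can leave a product, named 5p or 3p. In plants a miRNA pairs almost fully with its target mRNA and guides its cleavage, or lowers its translation. The miR171 3p products act on the HAIRY MERISTEM genes (HAM1, HAM2 and HAM3), GRAS family transcription factors that keep shoot meristem cells undifferentiated. The miR394 5p product acts on LCR (LEAF CURLING RESPONSIVENESS), an F-box protein, and in the shoot meristem it moves from the outer cell layer inward, where it keeps stem cells competent. Callus forms on CIM from cells that return to division and take on features of a root meristem.

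The 4 mature sequences are shown because the results below turn on which arm and which gene each one comes from. They are copied from the deposited target sheet, 5′ to 3′, with the seed (bases 2 to 8) in capitals.
miR171a-3p: uGAUUGAGccgcgccaauauc
miR171b/c-3p: uUGAGCCGugccaauaucacg
miR171b-5p: aGAUAUUAgugcgguucaauc
miR394a/b-5p: uUGGCAUUcuguccaccucc
All 4 seeds differ. The miR171 3p sequences are nonetheless close relatives. Shifted by 3 nucleotides, they share an aligned stretch of 18 nucleotides with 1 difference, C12U, counted from the 5′ end of miR171a-3p and giving the base of miR171a-3p before that of miR171b/c-3p.

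By exact match to the TAIR10.1 reference, miR171a-3p lay at chr3:19073521-19073541 on the plus strand, in the MIR171a gene (AT3G51375). Its other 3 matches lay antisense to HAM1, HAM2 and HAM3, opposite the fully paired sites given below. The miR171b/c-3p sequence matched MIR171b (AT1G11735) at chr1:3961367-3961387 and MIR171c (AT1G62035) at chr1:22930095-22930115, both on the minus strand, and its counts cannot be divided between these genes. The miR171b-5p sequence matched MIR171b alone, at chr1:3961430-3961450 on the minus strand. The 20-nucleotide miR394 sequence matched MIR394a (AT1G20375) at chr1:7058207-7058226 and MIR394b (AT1G76135) at chr1:28568821-28568840, both on the plus strand, so these loci cannot be told apart either. Of 11 annotated products of the MIR170, MIR171 and MIR394 genes, 8 were in the table, and miR170-3p, miR171c-5p and miR394b-3p were not analysed here.

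The hairpins of MIR171a and MIR171b are shown because the products that match their arms moved differently. Both are taken from the RefSeq annotation of TAIR10.1, 5′ to 3′ on the strand of the gene, with the products present in the table in capitals. MIR171a spans chr3:19073434-19073556 on the plus strand and MIR171b spans chr1:3961348-3961464 on the minus strand.
MIR171a: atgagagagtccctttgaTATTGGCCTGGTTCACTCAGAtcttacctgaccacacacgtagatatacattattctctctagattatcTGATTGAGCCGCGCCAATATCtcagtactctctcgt
MIR171b: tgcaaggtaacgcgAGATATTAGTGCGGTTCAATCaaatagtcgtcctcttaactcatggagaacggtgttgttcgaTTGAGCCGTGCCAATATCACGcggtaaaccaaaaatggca
The 5p product of MIR171a is not one of the 4 chosen sequences, and is given below as the partner strand of miR171a-3p. It is identical to the 5p product of MIR170, so the table names 1 sequence, miR170-5p/miR171a-5p, for both genes.

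The predicted sites separate the sequences more sharply than their family names do. They are written 5′ to 3′ as in the mRNA, with mismatched and G:U paired bases in capitals.
miR171a-3p in HAM1, HAM2 and HAM3: gauauuggcgcggcucaauca
miR171b/c-3p in HAM1 and HAM2: AgGgauauuggcGcggcucaa
miR171b/c-3p in HAM3: GgGgauauuggcGcggcucaa
miR394a/b-5p in LCR: ggagguUgacagaaugccaa
The miR171a-3p site was the same in all 3 HAM genes, with 0 mismatches and an Expectation of 0. The miR171b/c-3p site began 3 nucleotides earlier and overlapped it by 18 nucleotides, with an Expectation of 1.5. Its mismatches lay opposite miRNA bases 19 and 21 and its G:U pair opposite base 9. The miR394 site in LCR had an Expectation of 1 and a single mismatch, opposite base 14. All of these sites lay in coding sequence and were listed as cleavage sites. For miR171a-3p they lay on TAIR10.1 at chr2:18619128-18619148 in HAM1 (AT2G45160), chr3:22411544-22411564 in HAM2 (AT3G60630) and chr4:58411-58431 in HAM3 (AT4G00150), all on the minus strand. The LCR site lay at chr1:9497605-9497624 on the plus strand.

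The comparison of the genotypes asks whether these meristem miRNAs stand at another level in explants that lack EIN2 function. The product that pairs fully with the HAM mRNAs, miR171a-3p, was about 3-fold higher in ein2-1. Both miR171b-5p and the LCR regulator miR394a/b-5p were lower, by about 5-fold and 3-fold. The lower-level HAM regulator miR171b/c-3p did not pass the test. Of the 4 sequences, 1 thus rose, 2 fell and 1 missed the threshold, an adjusted p of 0.05 by edgeR's quasi-likelihood test on the deposited counts with Benjamini-Hochberg adjustment over all entries tested. Among all 118 distinct sequences tested, 34.7% rose and 32.2% fell, or 66.9% in either direction, so that 3 changed of 4 is close to the share of the whole table. As counts scaled between libraries with TMM factors, the groups did not overlap for 3 of the 4, with 1 lying higher in ein2-1 and 2 lower. On the same scale, 35.6% of all sequences tested lay higher without overlap and 31.4% lower, or 66.9% together. In tissue samples like these, fewer cells of a type and less of an RNA per cell cannot be told apart.

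The HAM regulator miR171a-3p had 76, 48 and 85 counts in Col-0 replicates 1 to 3 and 167, 260 and 417 counts in ein2-1 replicates 1 to 3. As CPM, the count scaled to a common library total with TMM factors, these were 67.2, 66.4 and 113 CPM in Col-0 and 168, 179 and 396 CPM in ein2-1. On this TMM scale every ein2-1 library lay above every Col-0 library, and ein2-1 replicate 3 stood well above the rest of its group. Relative to total counts alone the groups overlapped. There Col-0 replicate 3, with a total of 569132, lay above ein2-1 replicates 1 and 2, with totals of 1163907 and 1882664. The mean rose from 82.2 ± 26.6 to 248 ± 128 CPM (SD, n = 3 libraries each), a log2 fold change of 1.60 ± 0.35 (SE; adjusted p = 0.00106 by edgeR). Without ein2-1 replicate 3 the log2 fold change was 1.10, and the call was kept. Among the 142 sequences of a library, miR171a-3p stood between places 44 and 51 by count in Col-0 and between places 23 and 31 in ein2-1.

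The other HAM regulator, miR171b/c-3p, was the least abundant of the 4. It had 27, 18 and 15 counts in Col-0 and 17, 22 and 26 counts in ein2-1, or 23.9, 24.9 and 19.9 CPM against 17.1, 15.1 and 24.7 CPM. The groups overlapped, with ein2-1 replicate 3 inside the range of Col-0. The means were 22.9 ± 2.62 and 19.0 ± 5.04 CPM (SD, n = 3), and the log2 fold change of -0.29 ± 0.29 (SE; adjusted p = 0.389 by edgeR) did not pass. Its counts are few, and the 15 counts of Col-0 replicate 3 have an exact Poisson 95% interval of 8.40 to 24.7. Intervals of this kind cover counting error only, since the reads carry no molecular identifiers and may repeat 1 molecule.

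The opposite arm of MIR171b, miR171b-5p, showed the largest change of the 4. It had 167, 115 and 139 counts in the Col-0 libraries, against 29, 48 and 33 counts in ein2-1. These correspond to 148, 159 and 185 CPM in Col-0 and to 29.2, 33.0 and 31.3 CPM in ein2-1. The groups were far apart, and the 3 ein2-1 libraries lay close together. The mean fell from 164 ± 18.9 to 31.2 ± 1.88 CPM (SD, n = 3), with a log2 fold change of -2.38 ± 0.24 (SE; adjusted p = 1.7e-06 by edgeR). By count it went from places 34 to 37 in Col-0 to places 62 to 70 in ein2-1.

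The LCR regulator miR394a/b-5p had 730, 560 and 509 counts in Col-0 and 323, 248 and 298 counts in ein2-1. In CPM the Col-0 libraries stood at 645, 774 and 676, and those of ein2-1 at 326, 170.4 and 283. All ein2-1 libraries lay below all Col-0 libraries, replicate 2 lowest. The mean fell from 699 ± 67.4 to 259.6 ± 80.1 CPM (SD, n = 3), with a log2 fold change of -1.43 ± 0.24 (SE; adjusted p = 0.000116 by edgeR). Its place by count, 22 to 23 in Col-0, was 23 to 32 in ein2-1, so it stayed among the more abundant miRNAs of the table.

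The partner strand of miR171a-3p was as rare as miR171b/c-3p. The miR170-5p/miR171a-5p sequence had 17, 20 and 19 counts in Col-0 and 17, 37 and 44 counts in ein2-1, or 15.0, 27.7 and 25.2 CPM against 17.1, 25.4 and 41.8 CPM. The groups overlapped. The means were 22.6 ± 6.70 and 28.1 ± 12.5 CPM (SD, n = 3), and the log2 fold change of 0.35 ± 0.36 (SE; adjusted p = 0.396 by edgeR) did not pass.

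**Figure D1:**
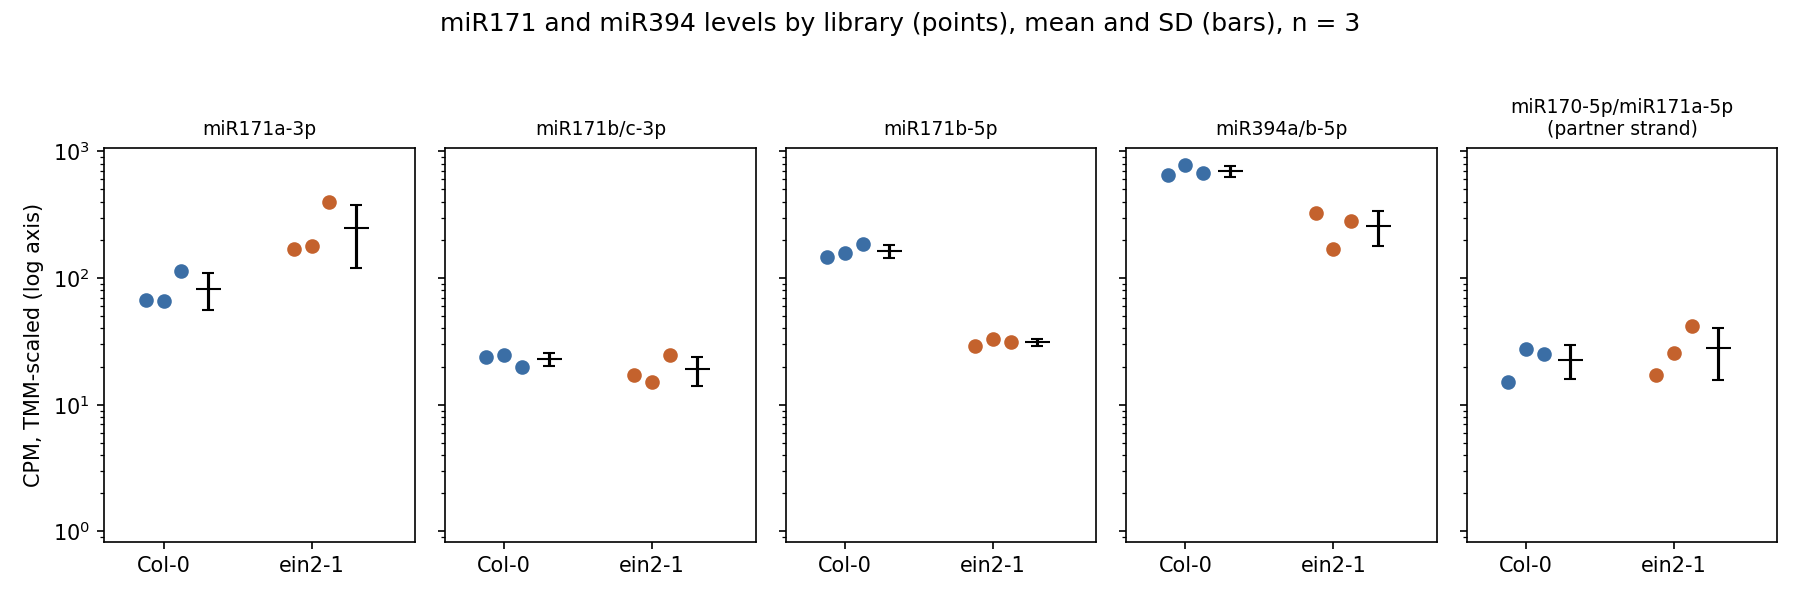
CPM scaled with TMM factors (log axis) of the 4 sequences and of the partner strand miR170-5p/miR171a-5p in each of the 3 Col-0 and 3 ein2-1 libraries (points), with the mean and SD of each genotype (bars). The ein2-1 points of miR171a-3p (168 to 396 CPM) lie above those of Col-0 (66.4 to 113 CPM), those of miR171b-5p and miR394a/b-5p lie below, and those of miR171b/c-3p and of the partner strand overlap.

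The order of the 4 by count differed between the genotypes. Each Col-0 library had miR394a/b-5p highest, then miR171b-5p, miR171a-3p and miR171b/c-3p. In ein2-1 replicate 1 the order was miR394a/b-5p, miR171a-3p, miR171b-5p and miR171b/c-3p. In ein2-1 replicates 2 and 3, miR171a-3p stood above miR394a/b-5p. In ein2-1 these neighbours did not differ beyond their spread, at 248 ± 128 and 259.6 ± 80.1 CPM. In Col-0 the ranges of neighbouring sequences did not overlap.

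**Figure D2:**
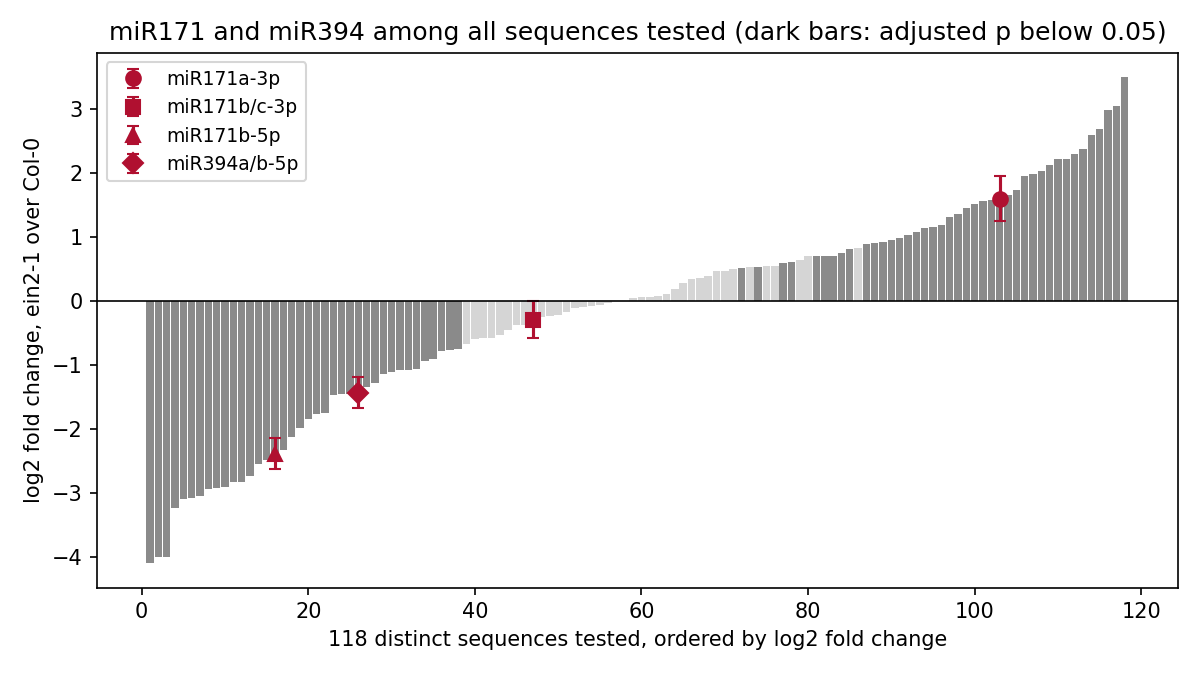
Log2 fold change (ein2-1 relative to Col-0) for the 118 distinct sequences tested, ordered from lowest to highest, with the 4 sequences marked and their SE as bars. Dark grey bars passed an adjusted p of 0.05 (edgeR); miR171b-5p (-2.38) is the 16th lowest, miR171a-3p (1.60) the 16th highest, and miR171b/c-3p (-0.29) lies among bars that did not pass.

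By size of change in either direction, miR171b-5p was 21st of the 118 sequences, miR171a-3p 38th, miR394a/b-5p 46th and miR171b/c-3p 100th. Changes of this size were thus common in the table.

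Ratios taken within a library do not depend on how libraries are scaled against each other, and they compare the counts of the sequences. They do not divide the counts of a sequence between genes that share it. In Col-0, miR171a-3p was lower than miR171b-5p in every library, with log2 ratios of counts of -1.13, -1.25 and -0.71 (pseudocount 0.5). In ein2-1 it was higher in every library, at 2.51, 2.43 and 3.64. The mean log2 ratio went from -1.03 ± 0.29 to 2.86 ± 0.68 (SD, n = 3), a difference of 3.89 or 14.8-fold, with an exact permutation p of 0.1 (two-sided). This is the smallest p that 3 libraries against 3 allow, and none of the 6 ratios tested could reach 0.05. The Benjamini-Hochberg adjusted p was 0.1 for each of the 6, and the genotypes did not overlap in any. Each ratio reuses a sequence that had already separated the genotypes by itself on the TMM scale. The ratios are thus no separate checks, and no share over other pairs of sequences was taken.

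Against miR394a/b-5p, the log2 ratio of miR171a-3p was -3.26, -3.53 and -2.58 in Col-0, against -0.95, 0.07 and 0.48 in ein2-1. The HAM regulator thus went from far below the LCR regulator to about the same count. The mean moved from -3.12 ± 0.49 to -0.13 ± 0.74 (SD, n = 3), a difference of 2.99 or 7.93-fold (exact permutation p = 0.1).

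Among the miR171 3p counts, miR171a-3p made up 73.8%, 72.7% and 85.0% in Col-0, against 90.8%, 92.2% and 94.1% in ein2-1. The widest Wilson 95% interval was that of Col-0 replicate 2, from 61.0% to 82.0%, on 66 counts. Every ein2-1 library held a larger share of the fully pairing product than every Col-0 library. The mean share went from 77.2 ± 6.80% to 92.4 ± 1.69% (SD, n = 3; exact permutation p = 0.1). Unlike the ratios, the summed level of both miR171 3p products depends on the scaling between libraries, here TMM. It was 105 ± 24.1 CPM in Col-0 and 267 ± 133 CPM in ein2-1 (SD, n = 3). The difference between the mean log2 values was 1.26 (exact permutation p = 0.1, not among the adjusted ratios).

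A further 3 ratios were added after the data had been seen. The arms of MIR171b came closer in count. The log2 ratio of miR171b-5p over miR171b/c-3p went from 2.81 ± 0.32 to 0.73 ± 0.39 (SD, n = 3), a 4.21-fold lower ratio in ein2-1 (exact permutation p = 0.1). The 3p strand of this ratio may also come from MIR171c. For the arms of MIR171a the log2 ratio of miR171a-3p over miR170-5p/miR171a-5p moved toward the 3p strand. It went from 1.83 ± 0.51 to 3.09 ± 0.26 (SD, n = 3, exact permutation p = 0.1), a 2.40-fold change. The 5p strand of this ratio may also come from MIR170. The ratio of miR394a/b-5p over miR171b-5p went from 2.09 ± 0.21 to 2.99 ± 0.57 (SD, n = 3; exact permutation p = 0.1), since miR171b-5p had the larger fall of these.

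**Figure D3:**
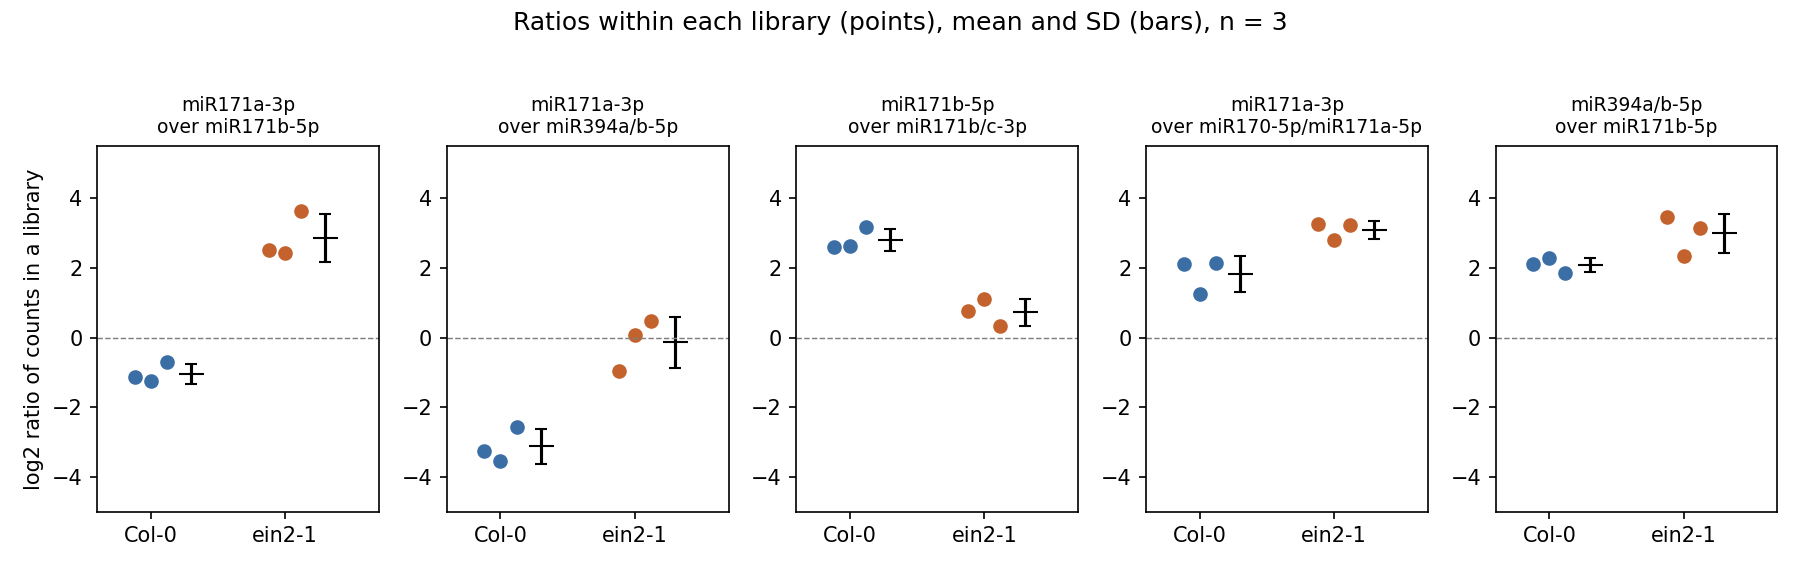
Log2 ratio of counts within each library (points, pseudocount 0.5) for 5 pairs of sequences in the 3 Col-0 and 3 ein2-1 libraries, with the mean and SD of each genotype (bars); the dashed line marks equal counts. The ratio of miR171a-3p over miR171b-5p lies below the line in each Col-0 library and above it in each ein2-1 library, and the genotypes do not overlap in any of the 5 panels.

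Directions were checked under 6 scalings of the libraries. The rise of miR171a-3p held in each, with log2 fold changes from 0.87 to 2.00, and so did the falls of miR171b-5p (-3.08 to -1.94) and miR394a/b-5p (-2.12 to -0.98). All of these passed an adjusted p of 0.05 (edgeR). The rise of miR171a-3p passed only narrowly under library-size scaling (0.87, edgeR adjusted p = 0.0455). The direction of miR171b/c-3p flipped, from -0.98 under library-size scaling, where it fell (edgeR adjusted p = 0.0066), to 0.13 under TMM without miR166, the most abundant miRNA (edgeR adjusted p = 0.685). Scaling also moved the whole table. The shift of single sequences against TMM had a median of -0.12 with RLE factors, of -0.69 with library sizes alone and of 0.43 with TMM factors that leave out miR166. With 1 entry per distinct sequence it was -0.20 under TMM and -0.51 under library-size scaling. Rises were 51.9% of all changed sequences under TMM, 26.3% under library-size scaling and 64.1% under TMM without miR166. Measured from the median log2 fold change of all sequences under the same scaling, miR171a-3p lay 1.48 to 1.54 higher. On the same measure miR171b/c-3p lay at -0.36 to -0.34, miR171b-5p at -2.45 to -2.42 and miR394a/b-5p at -1.49 to -1.37. A change of scaling shifts all sequences by nearly the same amount, so these distances hold almost by construction and are no separate check.

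**Figure D4:**
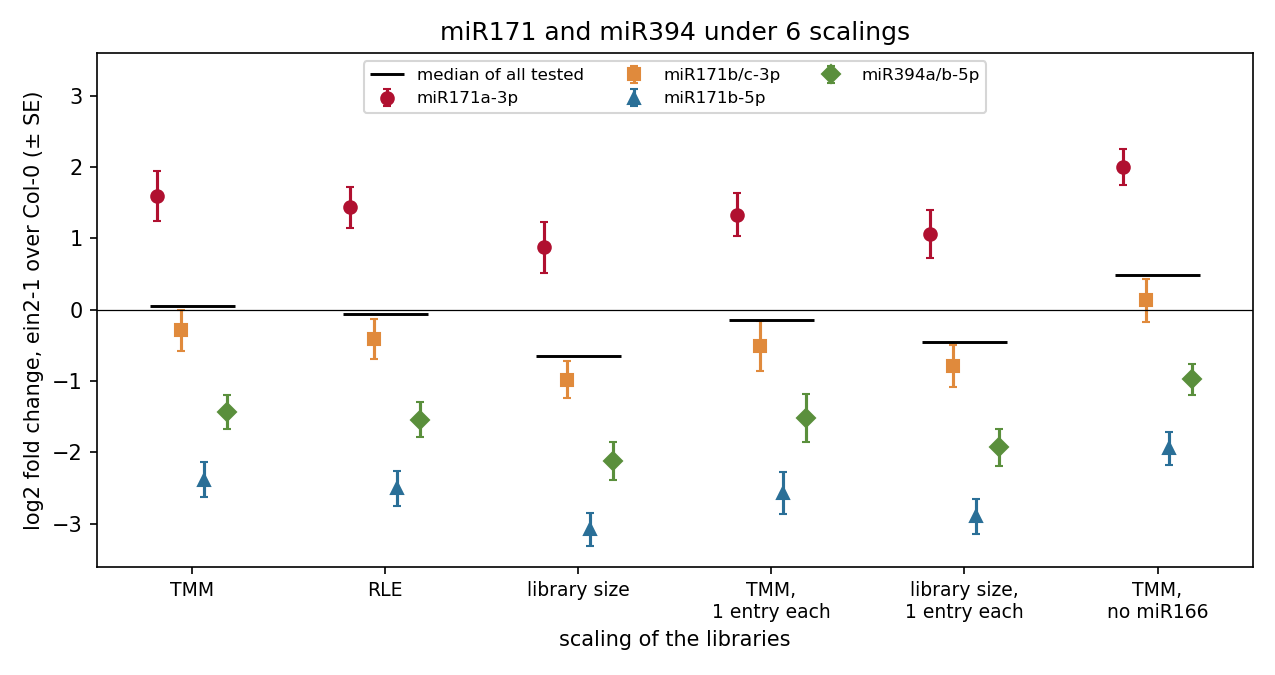
Log2 fold change, ein2-1 relative to Col-0 (points, SE as bars), for the 4 sequences under 6 scalings of the libraries, with the median of all sequences tested under each scaling (black lines). The 4 keep their order and nearly the same distance from the median, because a change of scaling shifts all sequences nearly alike. The point of no change lies at a different place in each scaling, and miR171b/c-3p goes from -0.98 to 0.13.

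The authors' deposited table gives log2 fold changes of 1.72 for miR171a-3p (FDR 6.4e-07) and -0.14 for miR171b/c-3p (FDR 0.684). For miR171b-5p, which carries the name Unknown there, the authors' deposited table gives -2.22 (FDR 1.4e-23), and for miR394a/b-5p -1.26 (FDR 2.6e-06). The authors' deposited table of changed miRNAs, with 46 entries, holds the 4 entries of miR171a-3p, miR171b-5p and miR394a/b-5p and not that of miR171b/c-3p.

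Beyond the genes of the rule, the miR171 3p sequences had few close predicted sites. Together they had a site at an Expectation of 3 or below in 9 genes. After the 3 HAM genes the best was AT3G47170, an acyl-transferase of the HXXXD type, at 1.5 for miR171b/c-3p. The 5 other genes were all at 3. For miR171a-3p they were AT4G11270, a WD40 repeat protein, and AT5G62560, a RING/U-box protein. For miR171b/c-3p they were AT2G32800 (AP4.3A, a protein kinase), AT5G23250, the alpha subunit of succinyl-CoA ligase, and AT5G65720 (NFS1, a NIFS-like protein). At any Expectation, which the sheet lists up to 5, the miR171 3p sequences shared 7 genes, or 11.7% of the 60 genes of miR171a-3p and 8.75% of the 80 genes of miR171b/c-3p.

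The miR394 sequence had a site at an Expectation of 3 or below in 5 genes, LCR being the best. AT3G58570 and AT4G24860, both P-loop nucleoside triphosphate hydrolases, followed at 2.5, and AT4G20430, a subtilase, and AT5G36170 (HCF109) at 3. The opposite strand miR171b-5p had no site below 2.5. Its 7 genes at 3 or below included CRK4 (AT3G45860), a receptor-like kinase, at 2.5 and APR3 (AT4G21990), an APS reductase, at 3. It shared 0 of its 72 predicted genes with miR171a-3p and 1 with miR171b/c-3p. These are predictions from sequence, and no mRNA level or cleavage product was measured in these libraries.

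A list of 20 meristem genes was read for predicted sites of any miRNA in the sheet. Of these genes, 14 had a site, and 4 had a site of one of the 4 sequences, namely HAM1, HAM2, HAM3 and LCR. The fourth HAM gene, HAM4 (AT4G36710), had none, nor had CLV2, CLV3, STM, WOX5 or CUC3. The HD-ZIP III genes REV, PHB, PHV, CNA and ATHB8, which set organ polarity and vascular fate, had sites of miR165 and miR166. The boundary genes CUC1 and CUC2 had sites of miR164 at an Expectation of 1. WUS, the organiser of the shoot stem cell niche, had miR847 at 4 as its only listed site. WOX4 had a closer site, of a MIR5014a product at 2, and CLV1 had a site of an unannotated sequence at 4.

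A list of miRNA families known from meristems was counted apart from these sites, and it includes miR171b-5p and miR170-5p/miR171a-5p, which have no site in the 20 genes. Of its 8 sequences, from miR164, miR165, miR166, miR170, miR171 and miR394, 3 rose, 2 fell and 3 did not pass (edgeR), where 34.7% of all sequences tested rose and 32.2% fell. The median log2 fold change was 0.42 beside 0.06 for all sequences tested, over members that went both ways. The rises beside that of miR171a-3p were those of miR166, with a log2 fold change of 1.08 (edgeR adjusted p = 5.2e-06), and of miR165, with 0.74 (edgeR adjusted p = 0.00119). The median and the counts rest on TMM scaling, which moves as given above. The miR164 sequence was at 33.6 to 41.2 CPM in Col-0 and 48.8 to 57.9 CPM in ein2-1, and its log2 fold change of 0.49 did not pass (edgeR adjusted p = 0.0889).

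The table holds no mRNA, so no mRNA marker of leaf tissue could be read. As a side measure, the 3 sequences of miR319 and miR408, which are abundant in leaves, were all detected in every library, with 0 of them at 0 counts. Their summed level was 19045 to 21374 CPM in Col-0 and 5770 to 7882 CPM in ein2-1. The miR319c product and miR319a/b fell, with log2 fold changes of -3.08 and -2.33 (edgeR adjusted p = 2.0e-07 for each). In contrast, miR408-3p rose with a log2 fold change of 0.53 (edgeR adjusted p = 0.013), so the 3 sequences did not move as a group. No tissue identity is read from them. The part of miR319 and miR408 in the changes of miR171 and miR394 was not tested.

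The profiles most like each changed sequence were taken by Pearson's r of log2 CPM over the 6 libraries, among 68 other annotated sequences. The 6 points share the difference between the genotypes, so that r is high for any sequence that moved the same way, and it is given as a description. It takes no account of the size of a change, so the log2 fold change of each sequence is also given in brackets. For miR171a-3p (1.60) the closest were miR156a/b/c/d/e/f-5p (r = 0.967, 1.13), a product of MIR841a/b (r = 0.963, 1.58) and miR391-3p (r = 0.954, 1.57). For miR171b-5p (-2.38) they were products of MIR863 (r = 0.996, -1.76), MIR773a (r = 0.993, -2.93) and MIR161 (r = 0.992, -0.90). For miR394a/b-5p (-1.43) they were miR390a/b-5p (r = 0.970, -1.74), miR167c-3p (r = 0.965, -4.09) and a product of MIR4228 (r = 0.951, -1.45).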

How the data were processed

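Small RNAs of 3 Col-0 and 3 ein2-1 libraries were analysed from the deposited tables. The submitters' processing notes name cutadapt, a trimmer of adapters, and the genome build TAIR10. The aligner and the counting tool were not given in the sources used here. Raw counts per precursor entry were deposited by the authors, repeated for each entry that shares a mature sequence, so 178 entries hold 142 distinct sequences. Per the file headers, the authors' deposited comparison holds log2 fold changes, ein2-1 relative to Col-0, and an FDR, an adjusted p-value. The deposited target sheet gives an Expectation score of at most 5 for each of 23944 entry-site pairs. The 6 columns of normalised values per library were not used.

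Total counts over entries ranged from 559411 to 940058 (Col-0) and from 1163907 to 1882664 (ein2-1), or from 333025 to 556692 and from 606476 to 987089 with each sequence counted once. They cover the listed miRNAs alone. CPM use totals over entries. TMM factors ranged from 1.20 to 1.32 (Col-0) and from 0.737 to 0.853 (ein2-1). The test was that of edgeR 4.0.16 under R 4.3.3 (TMM, filterByExpr defaults, quasi-likelihood, genotype as the only term, two-sided). The filter kept 153 entries with 118 distinct sequences and dropped the other 25, which hold 0.0175% of the counts. P-values were adjusted over entries, and counts in the text are of distinct sequences. The script was tested on simulated data with known changes in 40 of 118 sequences, equally many up and down, each sequence entered once. Such data do not test the scaling between libraries or the repeated entries. Ratios within libraries used counts plus 0.5 and an exact permutation test over libraries (scipy 1.17.1). Sequences were placed on TAIR10.1 (RefSeq) by exact match.

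The text names all 4 sequences, the genes of the rule, for each family all genes with a site at an Expectation of 3 or below (best first, at most 10), and for each of 3 sequences the 3 other annotated miRNAs with the highest r. The sequences and the lists of meristem miRNAs, meristem genes and leaf miRNAs were chosen with earlier results of these data known. The MIR171a partner strand, the miR171b-5p targets and list members given as examples are named outside the rule, with their values known. Alternatives were RLE and library-size scaling, 1 entry per sequence, TMM without miR166, no filter, at least 10 counts in 3 libraries, DESeq2 1.42.0, limma-voom (limma 3.58.1), a replicate block and each library left out. Tables were made with pandas 2.3.3 and numpy 2.4.6 in Python 3.11.15, and plots with matplotlib 3.10.9.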

Additional observations from a re-analysis of the deposited data

How the results depend on the processing

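The calls of miR171a-3p, miR171b-5p and miR394a/b-5p kept their direction and passed in each of the 10 other settings and 6 fits without a library. Without single libraries the log2 fold changes were 1.10 to 2.00 for miR171a-3p, -0.52 to -0.06 for miR171b/c-3p, -2.43 to -2.13 for miR171b-5p and -1.63 to -1.15 for miR394a/b-5p. The fold change of miR171b/c-3p was -0.98 under library-size scaling and -0.79 when that scaling used 1 entry per sequence, and passed in both (edgeR adjusted p = 0.0066 and 0.0308), and 0.13 under TMM without miR166 (edgeR adjusted p = 0.685). The partner strand miR170-5p/miR171a-5p was at -0.35 and -0.17 under these library-size scalings and passed at 0.77 under TMM without miR166 (edgeR adjusted p = 0.0251). The cause was not tested.

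The count of all sequences that rose, 41, was 21 under library-size scaling. It was 25 (TMM) and 23 (library-size scaling) with 1 entry per sequence, 51 with no filter, 59 under TMM without miR166, and 36 to 49 without single libraries. The 38 falls became 59 under library-size scaling and were 34 to 37 without single libraries. Predicted genes at an Expectation of 2 or below numbered 4 for miR171 3p and 1 for miR394, and at 5 or below 133 and 83. The same 4 sequences were chosen under each of the other limits of the rule that were tried. These limits could not change the set, so this is no check of it. No other sequence had a site in the genes of the rule, and the best Expectations there were at most 1.5.

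The differences of the within-library ratios were 3.49 to 4.10 (miR171a-3p over miR171b-5p), 2.68 to 3.40 (miR171a-3p over miR394a/b-5p), 13.0 to 19.1 percentage points (share of miR171a-3p), -2.26 to -1.88 (miR171b-5p over miR171b/c-3p), 0.96 to 1.41 (miR171a-3p over its partner strand) and 0.67 to 1.21 (miR394a/b-5p over miR171b-5p) without single libraries. With a pseudocount of 1 they moved by less than the spread between replicates.

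Same-numbered libraries were not treated as pairs, since no label gives a shared day. Their deviations correlated at 0.21, -0.05 and 0.17, against -0.24 to 0.04 for libraries of unlike number. With a replicate block the log2 fold changes were 1.53 for miR171a-3p, -0.30 for miR171b/c-3p, -2.38 for miR171b-5p and -1.47 for miR394a/b-5p, with 42 rises and 36 falls in all, and no call of the 4 sequences changed. The counts of 15 to 44 per library limit what can be said of miR171b/c-3p and the partner strand.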
